A study of Homo sapiens with 34 samples.

Results

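Microexons are the shortest exons of a gene. The 2086 examined here were 3 to 27 bases long and lay in 1707 genes. They were chosen from 4059 exon events of that length in the deposited splicing table by a minimum of 10 reads in each of the 4 control libraries, counting reads that join the exon to its neighbours (inclusion) and reads that join the neighbours without it (exclusion). The choice therefore used length and read number, and not the level of inclusion. Exon events of all lengths that met the same read minimum numbered 120030, of 721536 splicing events in all.

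The cells were hTERT RPE-1, a human line of retinal pigment epithelium immortalised with telomerase, in which Cas9 and Cas12a were directed by hybrid guide RNAs (hgRNAs), each of which fuses one guide per enzyme. Total RNA was sequenced as stranded libraries after removal of ribosomal RNA, in 34 libraries of 17 hgRNA groups with 2 biological duplicates each. After lentiviral transduction, puromycin (20 µg/ml) was applied for 72 h, and RNA was taken after 4 more days. Each library comes from a transduced population and not from 1 clone, so edited and unedited cells were measured together.

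Deletions within an intron were made in DDX5 and FNBP4 with 2 hgRNAs each (n = 4 libraries each) and in HNRNPD with 1 hgRNA (n = 2). Deletions across an exon that carries a premature stop codon (PTC exon) were made in DDX17, HDAC7 and FNBP4 with 2 hgRNAs each (n = 4 each). Knockouts of DDX5, DDX17, FNBP4 and HDAC7 paired an exonic Cas9 guide with an intergenic Cas12a guide, with 1 hgRNA each (n = 2 each). The HDAC7 deletion hgRNAs had their Cas9 guide in common, an FNBP4 intron hgRNA shared its Cas9 guide with an FNBP4 PTC exon hgRNA, and the guide given for the HDAC7 knockout is the same as that given for the FNBP4 knockout. The controls carried deletions between genes, made with 2 hgRNAs (n = 4). All groups share the hgRNA vector and the puromycin selection, and all 10 comparisons below use the same 4 control libraries.

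A microexon that keeps the reading frame adds or removes a few amino acids, often on the surface of a protein where partners bind. Many are included mainly in neurons, where the splicing factor SRRM4 recruits the spliceosome to them, and PTBP1 is known to repress a share of them in other cells. Microexons of genes for the cytoskeleton, membrane traffic and cell adhesion are the best known, and some of these are also spliced in cells outside the nervous system.

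The microexons below are shown with 12 bases of the neighbouring exons on each side, because their bases can be set against those of a related gene or because their inclusion differed between groups. They are given 5′ to 3′ on the gene's strand, with the microexon in capitals, from GENCODE v29 transcripts on GRCh38. The pairs of related genes come first.
MACF1, chr1:39465095-39465112, plus strand: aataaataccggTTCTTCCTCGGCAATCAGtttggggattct
DST, chr6:56468982-56468999, minus strand: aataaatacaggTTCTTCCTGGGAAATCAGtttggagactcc
CLASP1, chr2:121409024-121409047, minus strand: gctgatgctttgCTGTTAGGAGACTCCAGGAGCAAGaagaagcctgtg
CLASP2, chr3:33574473-33574496, minus strand: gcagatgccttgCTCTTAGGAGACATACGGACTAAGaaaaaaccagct
TENM3, chr4:182744143-182744163, plus strand: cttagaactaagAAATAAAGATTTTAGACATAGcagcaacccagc
TENM4, chr11:78720370-78720390, minus strand: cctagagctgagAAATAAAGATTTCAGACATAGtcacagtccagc
FLNA, chrX:154357251-154357274, minus strand: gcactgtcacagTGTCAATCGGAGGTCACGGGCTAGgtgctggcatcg
FLNC, chr7:128849181-128849204, plus strand: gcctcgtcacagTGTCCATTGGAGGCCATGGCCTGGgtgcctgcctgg
CYTH2, chr19:48477717-48477719, plus strand: tcctgaagctggGAGggggccgggtga
CYTH1, chr17:78696007-78696009, minus strand: tattgaaactcgGAGgtggcagggtaa
AXL, chr19:41239694-41239720, plus strand: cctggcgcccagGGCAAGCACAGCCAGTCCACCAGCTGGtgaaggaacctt
ABI1, chr10:26771075-26771089, minus strand: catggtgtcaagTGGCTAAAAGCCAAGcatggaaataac
DNM2, chr19:10808569-10808580, plus strand: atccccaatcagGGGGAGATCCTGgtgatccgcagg
MAP4K4, chr2:101868029-101868037, plus strand: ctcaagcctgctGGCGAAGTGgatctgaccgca

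Neuronal regulators of microexons were mixed in these cells. In the authors' deposited table, in which replicates are combined, SRRM4 and the neuronal factors RBFOX3 and NOVA2 were listed at 0 RPKM in the control column, and SRRM3, a relative of SRRM4, at 0.03 RPKM. NOVA1, another neuronal factor, was at 5.51 RPKM in the controls and between 3.44 and 11.4 RPKM in the edited groups, and PTBP2, the neuronal relative of PTBP1, was at 5.42 RPKM. PTBP1 stood at 62.2 RPKM, RBFOX2 at 61.96 RPKM and QKI, an RNA-binding splicing factor, at 61.6 RPKM. Neuron markers were mixed, with STMN2, ELAVL3 and ELAVL4 listed at 0, SNAP25 at 2.47, MAP2 at 8.39, SYT1 at 13.8 and TUBB3 at 255 RPKM. Of the pigment epithelium markers, RPE65, TYR and RLBP1 were at 0.05 RPKM or below, so these defining genes were close to absent. PMEL and SERPINF1 were at 0.19 RPKM each and BEST1 at 1.96 RPKM. MITF was at 9.14, OTX2 at 6.39, KRT8 at 223.2 and KRT18 at 250.6 RPKM.

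Edited genes were checked in the same table. DDX5 was at 73.4 RPKM in its knockout, against 238 RPKM in the controls, and DDX17 was at 102 RPKM in its knockout, against 137 RPKM. FNBP4 was at 35.2 and 27.2 RPKM with the PTC exon hgRNAs, against 14.3 RPKM in the controls, and the difference in its knockout did not pass the authors' FDR (11.1 RPKM, log2 fold change -0.25). In the other deletions the target did not pass the authors' FDR. DDX5 was at 189.9 and 194 RPKM with its deletion hgRNAs, against 238 RPKM in the controls (FDR 0.240 and 0.337). DDX17 was at 170 and 137.3 RPKM, against 137 RPKM (FDR 0.723 and 0.942), FNBP4 at 18.4 and 15.1 RPKM with its intron hgRNAs, against 14.3 RPKM (FDR 1 for both), HDAC7 at 55.4 and 46.9 RPKM, against 59.3 RPKM (FDR 0.991 and 0.574), and HNRNPD at 143 RPKM, against 116 RPKM (FDR 0.230). HDAC7 was not lower in the library pair labelled HDAC7 knockout, at 62.8 RPKM, against 59.3 RPKM in the controls.

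Libraries held 356306 to 560523 reads at the microexons, with a median of 79.25 reads per microexon in the controls. A microexon had 10 reads in every one of the 34 libraries in 1637 cases and 20 reads in 1264. Some libraries stood apart. Over exons longer than 27 bases, the median deviation of a library from the median of all libraries was 6.29 percentage points for replicate 2 of DDX17 PTC exon hgRNA 1, 6.07 points for replicate 1 of FNBP4 PTC exon hgRNA 3 and 5.81 points for replicate 2 of HDAC7 PTC exon hgRNA 1, and at most 4.80 points in the other libraries. The counts for these 3 deletions are given with and without those libraries.

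Most of the 2086 microexons were left out of the mature RNA in control cells, and a smaller set was almost always kept. Most of those left out are not annotated exons, as given below. The level of a microexon is given as percent spliced in (PSI), the share of its transcripts that include it. In the controls 1553 microexons (74.45%) had a mean PSI under 10%, 135 (6.47%) lay between 10 and 90%, and 398 (19.1%) were over 90%. No inclusion read was seen in any of the 34 libraries for 812 of them. Exons longer than 27 bases divided the other way, with 18.01% under 10%, 4.17% between 10 and 90% and 77.8% over 90%.

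Shorter and longer microexons divided differently, and the limit between them, 15 bases, is also that of the splicing program's separate microexon module. Of the 1283 that were 3 to 15 bases long, 90.4% were under 10% PSI and 5.53% over 90%. Of the 803 that were 16 to 27 bases long, 48.9% were under 10% PSI, 10.3% were between 10 and 90%, and 40.7% were over 90%. By module, 1063 of the 1123 events of the microexon module were under 10% PSI, and of the 647 events of the largest other module 314 were under 10% and 262 over 90%, so length and module cannot be told apart here. The 380 microexons of 3 bases were nearly all at the low end, with 6 between 10 and 90% and 4 over 90%. Of the 2086, 755 are GENCODE v29 exons with these ends. The other 1331 come from the splicing program's event library alone, and 1211 of them were under 10% PSI. Of the 755 annotated microexons, 342 were under 10% PSI, 103 between 10 and 90%, and 310 over 90%, so most of these were not left out. Among exon events of all lengths, 79.3% are GENCODE v29 exons. The contrast with longer exons is therefore not matched for annotation.

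**Figure D1:**
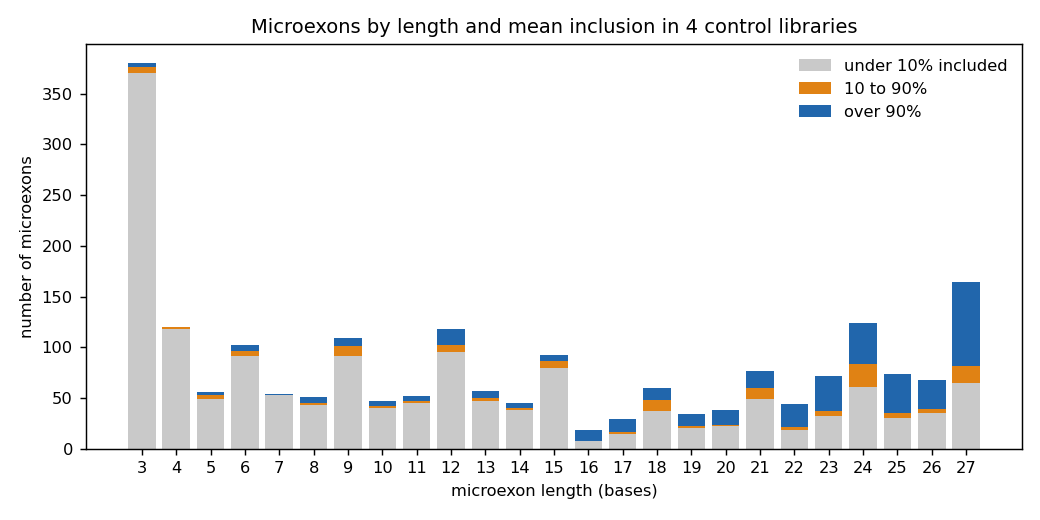
Number of microexons at each length from 3 to 27 bases, coloured by mean PSI in the 4 control libraries (under 10%, 10 to 90%, over 90%). The 380 microexons of 3 bases are nearly all under 10%, and the share over 90% is larger from 16 bases upward, with 82 of 164 at 27 bases.

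Microexon lengths were more often a multiple of 3, which keeps the reading frame, than those of longer exons. A length that is a multiple of 3 was found in 1226 of the 2086 (58.8%), against 38.4% of exons over 27 bases. The share was 71.9% of microexons between 10 and 90% PSI, 60.5% of those under 10% and 47.7% of those over 90%. In exons of 28 to 50 bases it was 48.8% of the class between 10 and 90%. The 1226 include all 380 microexons of 3 bases, of which only 6 were between 10 and 90% PSI and 4 over 90%. The shares of the whole set and of the class under 10% therefore rest in part on these 3-base events. Shares without them are not given, so the order of the classes under 10% and over 90% cannot be separated from them. The introns beside the microexons between 10 and 90% PSI had a median length of 1521 bases upstream and 1744 bases downstream, against 1114.5 and 912.5 bases for those over 90%. Base composition differed little between the classes, with 57.1% A or G in annotated microexons between 10 and 90% PSI, 55.8% in those under 10% and 57.4% in those over 90%.

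At the length limit, the 164 microexons of 27 bases had a median control PSI of 89.8%, and the 88 exons of 28 bases, just outside, had 95.2%. At the read limit, 39 microexons had 10 to under 11 reads in their lowest control library, among them one of AHI1 at 97.2% PSI and one of BTN3A2 at 0%, and 74 exons of the same lengths with 8 to under 10 reads were left out, among them one each of C18orf21, CTAGE5 and KIF15.

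Among the genes best known for microexons, inclusion was mostly low. A list of 66 such genes held 110 of the microexons in 52 genes, of which 90 were under 10% PSI, 11 between 10 and 90% and 9 over 90%, and 43 had no inclusion read in any library. In-frame length was commoner than in the whole set, at 84.5% of the 110. Among those with most reads, the 24-base microexon of AGRN, the basement membrane protein whose short neural exons control clustering of acetylcholine receptors, was at 0.198% and its 12-base microexon at 0.825%. The 9-base microexon of AP1S2, an adaptor subunit for clathrin coats, was at 0.155%. PTPRF, a receptor phosphatase, had an 18-base microexon at 0. The 27-base microexon of TPD52L2, the 3-base one of PICALM and the 5-base one of MACF1 were also at 0. Those of PICALM and MACF1 are not GENCODE v29 exons with these ends.

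Several of the list were spliced in, and others named here were mostly left out. SPTAN1, the alpha chain of non-erythroid spectrin, had an 18-base microexon at 97.9% and a 15-base one at 3.95% PSI. PTK2, the focal adhesion kinase, had a 9-base microexon at 9.78%, and ASAP2 a 4-base one at 0.105%, both in the class under 10%. That of ASAP2 is not a GENCODE v29 exon with these ends. PICALM, a clathrin assembly protein, had a 24-base microexon at 85.3 ± 2.30% (SD, n = 4 controls). The 12-base microexon of DNM2, the dynamin that pinches off endocytic vesicles, was at 42.6 ± 4.53%, and the 15-base microexon of ABI1, a subunit of the WAVE complex that starts actin branching, at 29.6 ± 4.26%. Over the 10 comparisons below, the 110 gave 1 result past the adjusted p, that of HERC4, of 38 over all microexons. In 12 of 1071 tested pairs of a microexon and a comparison (1.12%) the edited libraries did not overlap the controls, 2 higher and 10 lower. The share was 0.579% of such pairs over all microexons and 0.427% over exons longer than 27 bases. These shares are not matched for control PSI. Between 10 and 90% lay 11 of the 110, against 6.47% of all microexons and 4.17% of longer exons. ABI1 gave 5 of the 12 pairs and DST 2.

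At the shortest length, the 5 microexons of 3 bases with the most reads lay in LMNA, APP, RPL8, CAPN2 and BCAP31. LMNA had 4715 reads per control library on average at this event and APP 4491, with a mean control PSI of 0 in both, and CAPN2 had 0.01%. All 5 were skipped in nearly every read. None of the 5 is a GENCODE v29 exon with these ends, so they are candidates of the event library with almost no inclusion here. A 3-base microexon could also be well included: the one of NSFL1C, a cofactor of the p97 ATPase, averaged 36.7 ± 4.20% in the controls, and those of CYTH2 and CYTH1, exchange factors for ARF GTPases, averaged 49.2 ± 4.95% and 52.1 ± 7.25%. These 3 were chosen after their values were seen.

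Related genes gave microexons that are alike in sequence and in some cases unlike in use. Of 755 annotated microexons, 28 pairs in different genes had the same length and were identical at 70% or more of the bases of the exon and its 12-base flanks. In 17 pairs both were over 90% PSI, in 4 both were under 10%, and 4 pairs differed by 20 points or more. The pairs were described after their values were seen.

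The widest gap was in the spectraplakins MACF1 and DST, giant proteins that link actin to microtubules. Their 18-base microexons are identical at 16 of 18 bases, and PSI averaged 35.8 ± 5.37% for MACF1 and 87.9 ± 2.27% for DST (SD, n = 4 controls). The 4 control values were 37.8, 28.75, 35.2 and 41.5% for MACF1 and 87.4, 88.0, 90.9 and 85.4% for DST. Every DST value was above every MACF1 value. FLNA, the widely expressed filamin that crosslinks actin, averaged 68.9 ± 2.39% at its 24-base microexon, and its muscle relative FLNC was at 100% in every control library, with 18 of 24 exon bases identical.

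In 2 other pairs one gene was at 0 in the controls. CLASP1 and CLASP2, proteins that stabilise microtubule ends, share 17 of 24 bases, and PSI averaged 30.9 ± 6.97% for CLASP1 and 0 for CLASP2, for which no inclusion read was seen in any of the 34 libraries. TENM3 and TENM4, teneurin adhesion proteins, share 20 of 21 bases, and PSI averaged 28.3 ± 8.65% for TENM3 and 0 for TENM4, which had only 23.5 reads per control library. RAPGEF6 and RAPGEF2, exchange factors for RAP GTPases, were closer, at 44.7 ± 10.0% and 61.5 ± 6.61%.

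**Figure D2:**
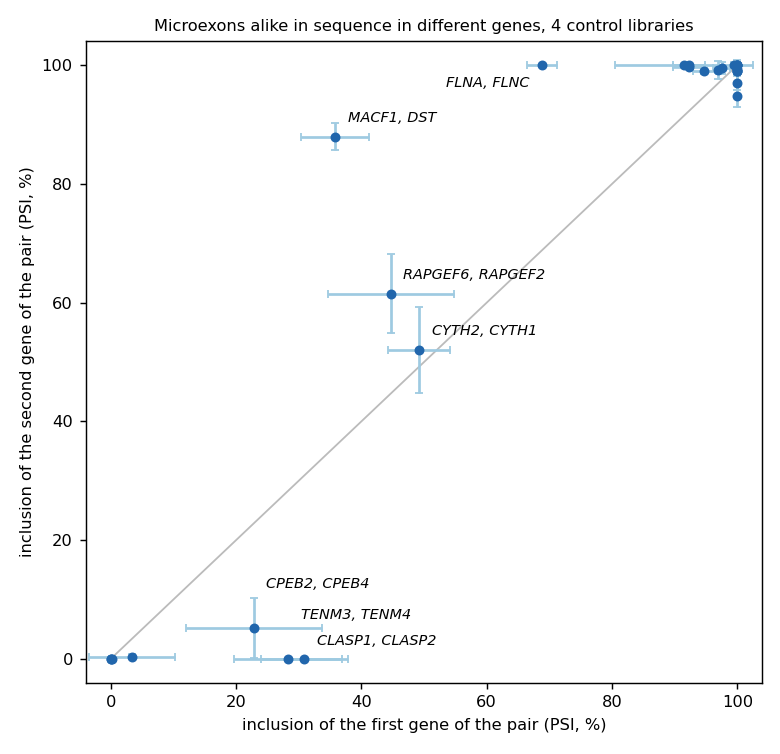
PSI of 28 pairs of microexons of equal length that are at least 70% identical in different genes, first gene on the x axis and second on the y axis (percent, mean of 4 control libraries, bars SD); the grey line marks equal inclusion. MACF1 (35.8%) and DST (87.9%) lie farthest above the line, and CLASP1 and TENM3 lie near 30% while their partners are at 0.

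Across the edited groups, few microexons passed the test for a difference from the controls. For each event, limma compared log2 inclusion over exclusion reads, with a Benjamini-Hochberg adjusted p over all events, and an event was called at an adjusted p under 0.05 with a difference of 10 percentage points. Of the 2086 microexons 1 was called in any of the 10 comparisons, that of SQSTM1 in the FNBP4 PTC exon deletion, where 0.0125% of all events were called. Counts past the adjusted p alone were 22 in the DDX5 deletion (0.81% of all events), 8 in the FNBP4 PTC exon deletion (0.292%), 6 in the HDAC7 knockout (0.145%), 1 in the DDX5 knockout (0.0189%), 1 in the FNBP4 knockout (0.073%) and 0 in the other 5 comparisons.

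These counts hold few changes of inclusion. Of the 38 results past the adjusted p, 20 were microexons with no inclusion reads and 9 were microexons with no exclusion reads in the libraries compared. Their log ratio moves with the read number of the gene alone, because 1 was added to both counts, and they show no difference in PSI. In only 4 of the 38 did PSI differ by 5 points or more. An alternative scaled the added count to the reads of each library and left out microexons that were never or always included. It was chosen after the data were seen and is named below beside results that passed with it or did not.

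The spread between duplicates was wide for microexons of intermediate use. The median SD between replicates was 6.95 points over 95 microexons between 10 and 90% PSI, and 6.56 points over 3428 longer exons of that class. Microexons were also counted where every edited library lay above, or every one below, the 4 controls, with a mean difference of 10 points or more. The 10 comparisons gave 113 such cases in 64 microexons, 60 of them between 10 and 90% PSI in the controls, and 17 of the 64 had fewer than 30 reads per control library. Shares over all exons below are not matched for control PSI. Between 10 and 90%, microexons and longer exons stood at 4.03 and 4.58% in the DDX5 deletion and 2.8 and 2.45% in DDX17. The FNBP4 intron and HDAC7 deletions gave 3.88 and 2.92%, and 3.39 and 2.23%. The FNBP4 PTC exon and HNRNPD deletions gave 8.33 and 5.04%, and 5.51 and 10.6%. Knockouts gave 19 and 13.8% for DDX5, 14.2 and 11.6% for DDX17, 15.1 and 14.7% for FNBP4, and 12.7 and 11.5% for HDAC7.

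**Figure D3:**
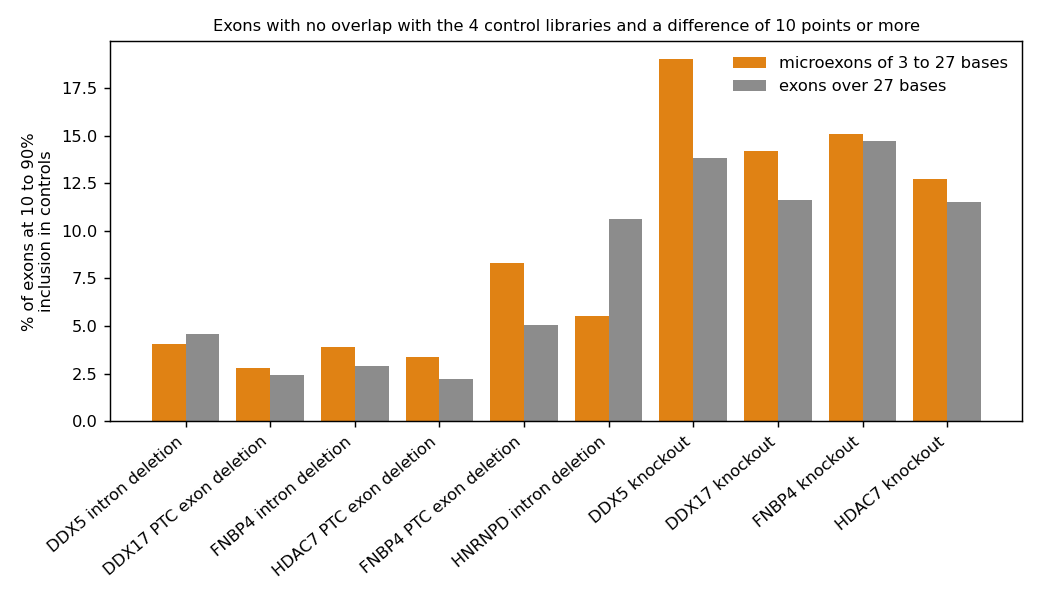
Share of exons with a control PSI of 10 to 90% that did not overlap the controls by 10 points or more, in each of the 10 comparisons, for microexons and for exons longer than 27 bases (percent of those tested). In the DDX5 knockout 24 of 126 microexons and 13.8% of longer exons lay apart, and in the HNRNPD deletion 5.51% and 10.6%.

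In the FNBP4 PTC exon deletion the 13-base microexon of SQSTM1, the autophagy receptor p62, fell. It lies at chr5:179821129-179821141 on the plus strand, is not a GENCODE v29 exon with these ends, and its length does not keep the frame. PSI was 37.7, 40.03, 37.6 and 46.9% in the deletion libraries, against 64.4, 70.4, 68.5 and 60.2% in the controls. All 4 deletion libraries lay below all 4 controls, and PSI averaged 40.6 ± 4.34% in the deletion and 65.9 ± 4.54% in the controls (SD, n = 4 each). It fell by 25.3 points, with a log2 ratio change of -1.49 (SE 0.31) and an adjusted p of 0.0436 in limma.

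This call was fragile. It was kept in 7 of 19 alternatives, with adjusted p from 0.0218 to 0.329, while the difference stayed between -27.4 and -23.8 points. It was lost when any 1 of the 8 libraries was left out except replicate 2 of hgRNA 3. It was also lost with the scaled added count, where the 1 microexon called was that of PSAP. Without replicate 1 of hgRNA 3, the library that stood apart, 0 microexons were called, 1 passed the adjusted p and 8 did not overlap the controls. SQSTM1 itself was lower in this deletion in the authors' deposited table, at 198 and 249 RPKM with the 2 hgRNAs, against 371 RPKM in the controls, with an FDR of 2.67e-05 and 0.00918. In bulk RNA, fewer cells of a type and less RNA per cell cannot be told apart.

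SQSTM1 was also below all controls in all 4 knockouts, by 10 points or more in the mean. PSI was 34.8 and 59.1% in the DDX5 knockout, 42.3 and 50.25% in the DDX17 knockout, 40.07 and 48.7% in the FNBP4 knockout, and 43.5 and 51.7% in the HDAC7 knockout, against 60.2 to 70.4% in the controls. Adjusted p in limma ran from 0.220 to 0.546 in these 4, none past the threshold. In the other deletions the means were 55.6 to 61.2%, with the HNRNPD libraries at 56.7 and 55.3%, also below all controls. SQSTM1 itself was at 236 RPKM in the HNRNPD deletion, against 371 RPKM (FDR 0.00798 in the authors' deposited table).

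Besides SQSTM1, 9 microexons did not overlap the controls in the FNBP4 PTC exon deletion, making 10 of 1947 tested (0.514%), 3 higher and 7 lower, against 0.234% of all exons. PSAP encodes prosaposin, the precursor of the saposins that help break down sphingolipids in lysosomes. Its 6-base microexon, at chr10:71823888-71823893 on the minus strand, had 2136 to 9632 reads per library. PSI was 39.4, 40.6, 41.9 and 42.5% in the deletion, against 51.2, 53.1, 54.3 and 54.3% in the controls. All deletion libraries lay below all controls, with a narrow spread in each group. The difference of -12.1 points did not pass in limma (adjusted p 0.105) and passed with the scaled added count (adjusted p 0.00748).

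MROH1 and FLNA were on the higher side. The 27-base microexon of MROH1 was at 49.2, 40.4, 35.9 and 37.5% in the deletion, against 24.5, 21.4, 21.01 and 20.45% in the controls, an adjusted p of 0.0761. FLNA was at 82.4, 74.2, 77.8 and 78.6%, against 71.7, 70.05, 66.9 and 66.9%, an adjusted p of 0.136. Both groups were apart from the controls, FLNA by less than the 10-point limit in the mean (a difference of 9.35 points).

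In the DDX5 intron deletion no microexon was called, where 0.0407% of all events were, and 5 of 1994 did not overlap the controls (0.251%, 3 higher and 2 lower), against 0.237% of all exons. The 22 past the adjusted p included 13 with no inclusion reads and 7 with no exclusion reads, and 249 (12.5%) had an unadjusted p under 0.05. Such unadjusted counts, here and below, are given without the share over all events. They cannot be read as particular to microexons. The 24-base microexon of HERC4, a ubiquitin ligase, was among the exceptions. It averaged 6.33% in the controls, with a log2 ratio change of -1.18 (SE 0.25) in the deletion and an adjusted p of 0.0275, a difference of -3.45 points. The other exception was the 24-base microexon of AIMP1, at 5.07% in the controls from 26.25 reads per library. It differed by -5.07 points, with an adjusted p of 0.0432 in limma. Neither HERC4 nor AIMP1 passed in this comparison with the scaled added count.

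DST came close to a call in this comparison. PSI was 75.3, 74.3, 80.95 and 73.1% in the DDX5 deletion, against 87.4, 88.0, 90.9 and 85.4% in the controls. All deletion libraries lay below all controls, with a difference of -12.03 points, a log2 ratio change of -1.17 (SE 0.28) and an adjusted p of 0.0504 in limma. The DST gene was at 88.9 and 90.1 RPKM with the 2 hgRNAs, against 54.1 RPKM, which did not pass the authors' FDR. The 18-base microexon of EFEMP1, the matrix protein fibulin-3, was at 43.3, 42.8, 43.5 and 41.4% in the deletion, against 32.4, 31.8, 29.9 and 33.8% in the controls, with an adjusted p of 0.273. Every deletion library lay above every control.

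In the other deletions no microexon was called or passed the adjusted p. In the DDX17 PTC exon deletion, where 0.000326% of all events were called, 3 of 1802 microexons did not overlap the controls (0.166%, 1 higher and 2 lower), against 0.123% of all exons. In the FNBP4 intron deletion, where no event was called, the count was 5 of 2009 (0.249%, 2 higher and 3 lower), against 0.14%. In the HDAC7 PTC exon deletion, again with no event called, it was 4 of 1883 (0.212%, 1 higher and 3 lower), against 0.113%, and in the HNRNPD intron deletion, with 0.00233% of events called, 7 of 2040 (0.343%, 2 higher and 5 lower), against 0.57%. Microexons with an unadjusted p under 0.05 numbered 163, 134, 130 and 139 in these 4, in the order given, and events past the adjusted p were 0.0026, 0.00353, 0.000934 and 0.00991% of all tested. Without the library that stood apart, no microexon was called or passed the adjusted p in the DDX17 or HDAC7 PTC exon deletion either, and 6 did not overlap the controls in each. Without replicate 1 of DDX17 PTC exon hgRNA 1, 45 passed the adjusted p and 1 was called. The share of all events in that fit is not given, so these counts cannot be read as particular to microexons.

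ABI1 and DST lay below the controls in several deletions. ABI1 was at 20.8, 14.4, 12.5 and 10.3% in the FNBP4 intron deletion, against 26.9, 30.4, 35.2 and 25.7% in the controls, with an adjusted p of 0.586, and it lay below all controls, with a mean difference of 10 points or more, in 5 comparisons, the DDX17 and DDX5 deletions among them. DST was at 81.55, 78.1, 79.1 and 78.3% in the DDX17 PTC exon deletion and at 82.4, 81.2, 82.05 and 74.4% in the FNBP4 intron deletion, below the controls in both. In the HDAC7 PTC exon deletion DST averaged 86.9 ± 3.33%, and in the HNRNPD deletion 89.5 ± 1.51%, both overlapping the controls (87.9 ± 2.27%).

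In the DDX5 knockout most microexons that stood apart were lower. None was called, where 0.003% of all events were, and 25 of 1966 did not overlap the controls (1.27%), 5 higher and 20 lower, against 0.739% of all exons. Past the adjusted p stood 1 microexon, that of RPL17 with a difference of 0.59 points, and 205 had an unadjusted p under 0.05. With 2 edited libraries a group lies apart from the controls more easily than with 4, so counts of knockouts can be set only beside that of the HNRNPD deletion, which also has 2 libraries (7 of 2040).

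AXL is a receptor tyrosine kinase for the ligand GAS6. Its 27-base microexon was at 45.7 and 46.0% in the DDX5 knockout, against 61.4, 65.0, 63.9 and 58.2% in the controls, with 2846 to 4098 reads per control library. The difference was -16.3 points, with an adjusted p of 0.192 in limma and 0.0161 with the scaled added count. In the DDX5 intron deletion AXL lay in between, at 52.4, 51.06, 56.6 and 54.5%, below all controls, with an adjusted p of 0.276. AXL itself was at 485 RPKM in the knockout, against 333 RPKM in the controls (FDR 0.0484 in the authors' deposited table).

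PSAP, MACF1 and DST were also lower in the DDX5 knockout. PSAP was at 39.7 and 41.2%, against 51.2 to 54.3% in the controls, an adjusted p of 0.287 in limma and 0.0299 with the scaled added count. MACF1 was at 20.5 and 22.1%, against 28.75 to 41.5% (adjusted p 0.403), and DST at 72.85 and 74.1%, against 85.4 to 90.9% (adjusted p 0.189). CLASP1 was at 20.7 and 11.6%, against 24.5 to 37.4% (adjusted p 0.383). All 4 lay below every control without passing the test in limma.

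In the DDX17 knockout, 19 of 2012 microexons did not overlap the controls (0.944%), 12 higher and 7 lower, against 0.71% of all exons. None was called, where 0.00772% of all events were, none passed the adjusted p (0.0276% of all events), and 5.82% of those tested had an unadjusted p under 0.05. FLNA was at 82.5 and 84.4% in this knockout, against 71.7, 70.05, 66.9 and 66.9% in the controls, with 2442 to 2949 reads per control library. The difference of 14.6 points had an adjusted p of 0.123 in limma and 0.00249 with the scaled added count. When only exon events entered the test, 2 microexons were called in this knockout.

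MACF1 and DST stood on the other side of the controls here than in the DDX5 knockout. MACF1 was at 48.9 and 50.35% in the DDX17 knockout, against 37.8, 28.75, 35.2 and 41.5% in the controls, with an adjusted p of 0.795. DST was at 91.9 and 95.3%, against 85.4 to 90.9%, with an adjusted p of 0.687. NSFL1C was at 42.03 and 43.2% in the DDX17 knockout, with 27.1 and 26.6% in the DDX5 knockout, against 40.3, 31.9, 40.2 and 34.5% in the controls. The difference between the knockouts was not tested. The 9-base microexon of MAP4K4, a kinase upstream of JNK, averaged 43.9 ± 2.72% in the DDX17 knockout and 43.2 ± 0.75% in the FNBP4 knockout, against 32.7 ± 8.66% in the controls.

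**Figure D4:**
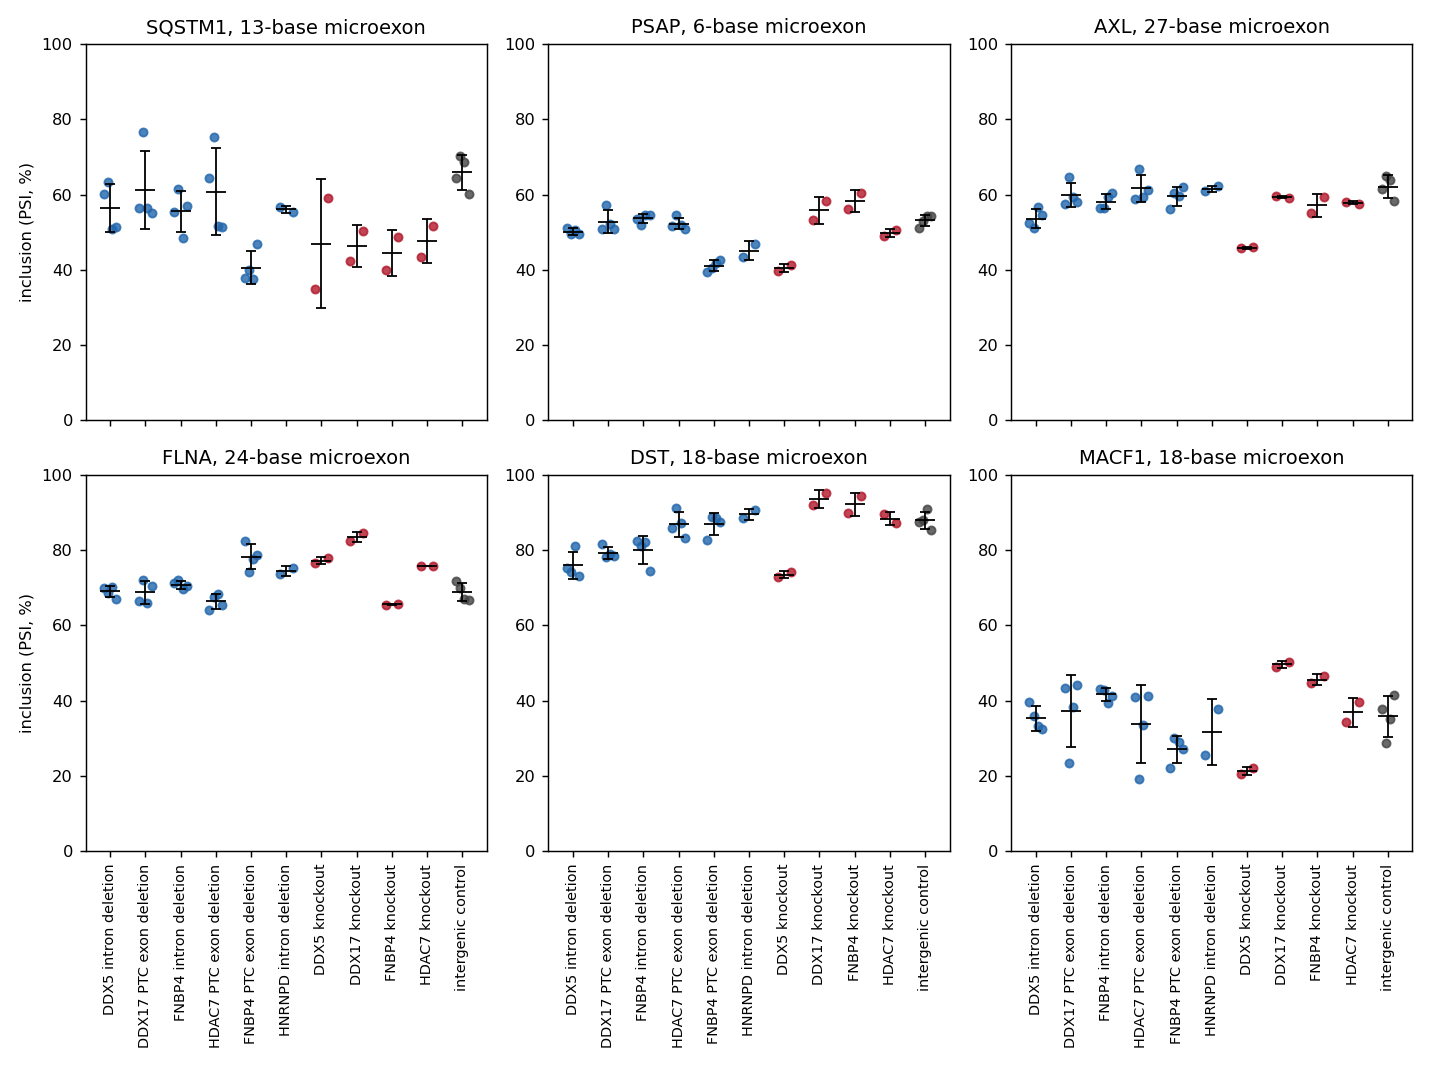
PSI (percent) of the microexons of SQSTM1, PSAP, AXL, FLNA, DST and MACF1 in every library, by group: deletions in blue, knockouts in red and controls in grey at the right, with bars for the mean ± SD. SQSTM1 lies lowest in the FNBP4 PTC exon deletion (40.6%, against 65.9% in the controls), AXL in the DDX5 knockout (45.8%, against 62.1%), and FLNA highest in the DDX17 knockout (83.4%, against 68.9%).

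In the FNBP4 knockout, 20 of 1945 microexons did not overlap the controls (1.03%), 7 higher and 13 lower, against 0.819% of all exons. None was called, where 0.00787% of all events were, and 191 had an unadjusted p under 0.05. The 11-base microexon of UCHL1, a ubiquitin hydrolase, was the 1 past the adjusted p. It was at 93.9 and 91.4% in the knockout, against 99.4, 99.6, 99.4 and 99.1% in the controls, and fell by 6.70 points (log2 ratio change -2.97, SE 0.42, adjusted p 0.00515 in limma). It passed in limma with the scaled added count (adjusted p 0.000652). With strongly imbalanced libraries treated as missing, 0 microexons passed the adjusted p in this knockout. In the other edited groups the UCHL1 microexon lay at 97.88% or higher. PSAP was at 56.3 and 60.4% in this knockout, against 51.2 to 54.3% in the controls, the opposite side from the FNBP4 PTC exon deletion. Its adjusted p was 0.740, and the difference between the 2 FNBP4 edits was not tested.

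In the HDAC7 knockout, whose target was not lower, 15 of 1932 microexons did not overlap the controls (0.776%), 8 higher and 7 lower, against 0.594% of all exons. None was called, where 0.00796% of all events were, and 259 had an unadjusted p under 0.05. Of the 6 past the adjusted p, 5 had no inclusion reads. The other, the 4-base microexon of ATP6V1A, a subunit of the vacuolar proton pump, was at 0 in the controls and differed by 5.40 points (adjusted p 0.0343). ATP6V1A did not pass with the scaled added count. EFEMP1 was at 41.4 and 57.7%, against 32.4, 31.8, 29.9 and 33.8% in the controls, with an adjusted p of 0.179.

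Over all 10 comparisons, 31 of the 64 microexons (48.4%) lay apart from the controls in 2 comparisons or more, and 4 (6.25%) in 4 or more. Of 3045 exons longer than 27 bases that lay apart in any comparison, 35.1% did so in 2 or more and 5.22% in 4 or more. LYPLA1, a thioesterase that removes palmitate from proteins, was higher in 6, SQSTM1 and ABI1 were lower in 5 each and EFEMP1 was higher in 4. The 24-base microexon of LYPLA1 was at 33.06 and 54.4% in the DDX5 knockout and 33.3 and 61.6% in the HDAC7 knockout, against 11.75, 11.8, 6.86 and 13.9% in the controls. LYPLA1 had only 43 to 102 reads per control library, and adjusted p values were 0.143 and 0.0542. Because the comparisons share their controls, repeated differences are not independent. In 7 microexons the direction was not the same in every comparison.

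**Figure D5:**
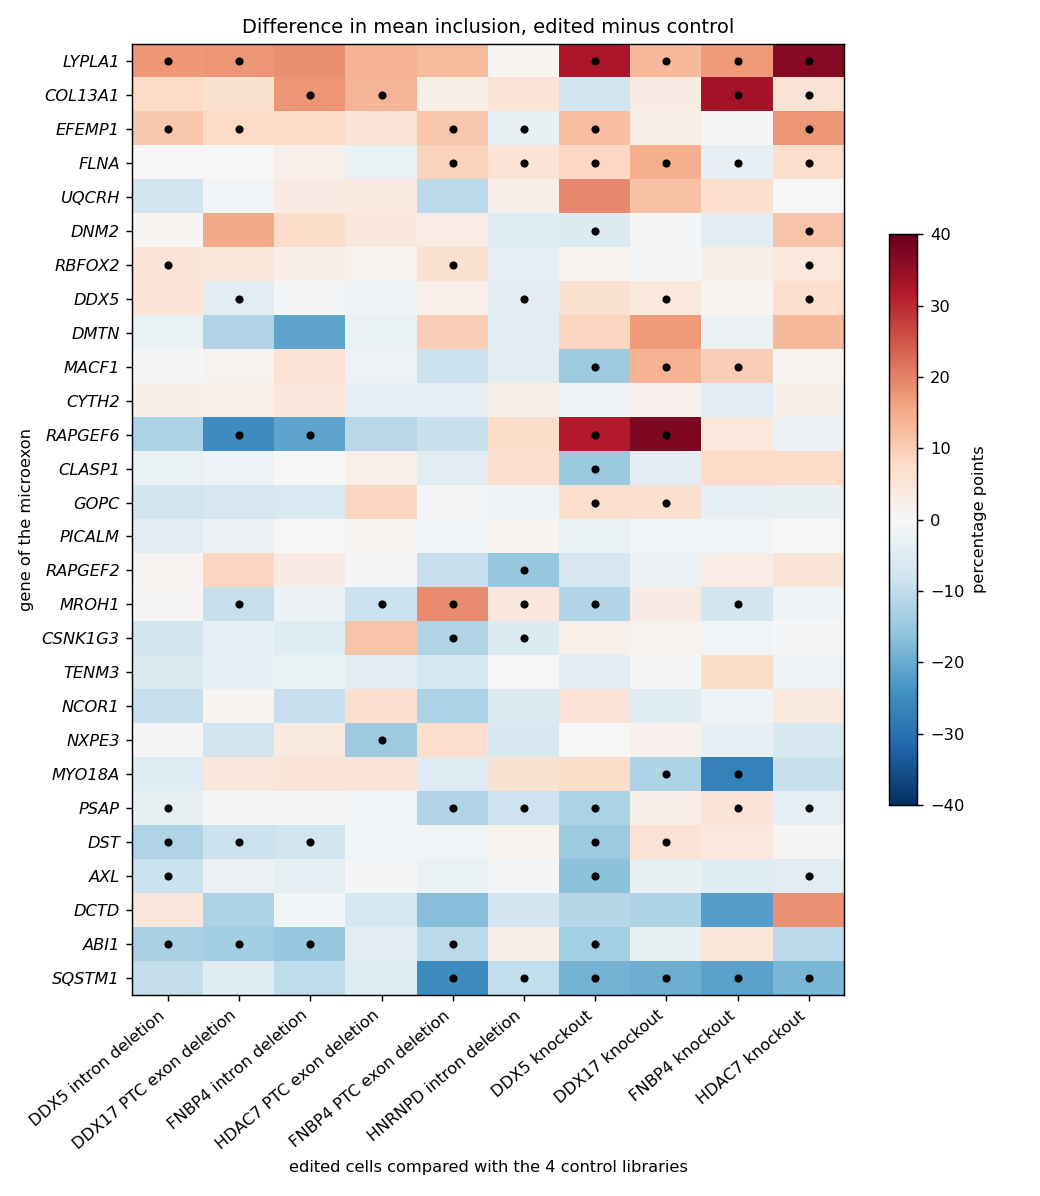
Difference in PSI from the controls (percentage points, edited minus control) for 28 described microexons in the 10 comparisons, red higher and blue lower; a black dot marks comparisons in which no edited library overlapped the controls. SQSTM1 is lower in all 10 comparisons and LYPLA1 higher in all 10, and MACF1 is lower in the DDX5 knockout and higher in the DDX17 knockout.

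Across all 17 hgRNA groups at once, 15 of the 1637 microexons with 10 reads in every library varied among groups (limma F test, adjusted p under 0.05), against 0.596% of all events. Of these, 3 had no inclusion reads, 2 had no exclusion reads and 5 had group means that ranged over 5 points or more. MROH1 (adjusted p 0.0241), DST (0.0373), HERC4 (0.0363) and the 11-base microexon of UCHL1 (0.0491) varied in this test and also with the scaled added count, where 11 passed. With the scaled count FLNA (0.0126), PSAP (0.0186) and GOPC (0.0360) passed as well. MROH1 group means ranged over 34.7 points, DST over 20.1, GOPC over 25.5 and PSAP over 18.3 points.

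The widest ranges of group means mostly did not pass the F test. With 20 reads in all 34 libraries required, MYO18A, an unconventional myosin, ranged over 48.6 points, DMTN, the actin bundler dematin, over 46.4, COL13A1, a transmembrane collagen, over 43.7, DCTD, the dCMP deaminase, over 40.3 and UQCRH, a subunit of respiratory complex III, over 38.9 points. The 12 widest also held LYPLA1 (37.1), MROH1 (34.7), NXPE3 (31.8), SQSTM1 (31.1), the corepressor NCOR1 (31.03), the 18-base microexon of RAPGEF2 (30.7) and the kinase CSNK1G3 (28.6 points). Of these 12 only MROH1 passed.

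COL13A1 and DCTD differed in how their groups lay. COL13A1 was at 75.1 and 57.6% in the FNBP4 knockout and 48.75, 48.04, 53.65 and 52.4% in the FNBP4 intron deletion, against 24.3, 37.4, 35.45 and 35.2% in the controls, above every control in both, with adjusted p values of 0.0819 and 0.595 from 49 reads per control library. DCTD was at 21.99 and 58.7% in the HDAC7 knockout and 0 in both FNBP4 knockout libraries, against 30.5, 0, 39.4 and 18.45% in the controls. No group of DCTD lay apart from the controls, which themselves spread from 0 to 39.4%.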

How the data were processed

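Stranded total RNA of 34 hTERT RPE-1 libraries was analysed from 2 deposited tables. Per the file headers, the splicing table holds percent spliced in from vast-tools, with a quality string of reads that the authors deposited beside each value. Inclusion and exclusion reads were taken from that string, and in 99.98% of 138006 checked strings they summed to its raw reads within 0.05. The authors' deposited expression table gives RPKM, log2 fold changes and FDR p-values against the controls with replicates combined, and the submitters' processing notes name Salmon 1.10 and edgeR. No source used here gives the genome build or the vast-tools version; exon coordinates matched GENCODE v29 on GRCh38. Of the splicing values, 2 library columns were not used.

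Reads with 1 added to both counts gave log2 ratios. Libraries under 10 reads were missing. One model of all 17 groups was fitted in limma 3.58.1 (R 4.3.3; numpy 2.4.6, pandas 2.3.3, scipy 1.17.1), tested on simulated data, with p-values adjusted over all events. Replicate numbers did not pair most groups. Duplicates are labelled biological; whether they were separate transductions is not stated. Depth was 356306 to 560523 microexon reads per library. Named microexons were those called, the 12 with the widest range of group means, the 12 with most reads of a list of 66 genes, the 5 shortest (ties by reads) and those at the limits; others were chosen after their values were seen, as were those in the figures. The members and lists were chosen with earlier results of these data known. Alternatives changed the read minimum, added count, points, libraries, controls and events tested.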

Additional observations from a re-analysis of the deposited data

Results flagged for a closer look

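In 28 described microexons, 168 groups of 4 libraries were examined for a library far from the other 3, and 13 were found; chance flags about 1 in 20 groups. Replicate 2 of DDX17 PTC exon hgRNA 1, which also stood apart over longer exons, gave 4 of them: SQSTM1 was highest there at 76.66% PSI (nearest 56.53%), NCOR1 highest at 73.62% (nearest 42.27%), RAPGEF6 lowest at 0 (nearest 23.61%, from 3 reads) and the DDX5 14-base microexon lowest at 9.48% (nearest 16.22%). In the HDAC7 PTC exon deletion, NCOR1 was highest at 71.46% in replicate 2 of hgRNA 1, which also stood apart.

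In the DDX5 deletion, COL13A1 was highest at 56.44%, CSNK1G3 at 72.99% and TENM3 at 31.61% in 1 library each. In the FNBP4 PTC exon deletion, DCTD was at 19.82% in 1 library and 0 in the other 3. In the FNBP4 intron deletion, MROH1 was highest at 25.76% and DST lowest at 74.41% in 1 library each. In the controls, COL13A1 was lowest at 24.32% and GOPC at 15.9% in 1 library each.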

How the results depend on the processing

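Of 531 values under alternatives, 373 kept their direction and their side of the threshold or stayed within 1.5 times, 146 counts moved further, 12 were weaker and none reversed. The 12 weaker values were all of SQSTM1 in the FNBP4 PTC exon deletion. Called microexons there became 0 with 0.5 added, with only the libraries of the comparison, and against control hgRNA 1 or 2 alone, in place of 1. With the scaled count 1 was called there, that of PSAP and not that of SQSTM1. Elsewhere, in place of 0, called microexons became 1 in the DDX5 deletion at 5 points or 20 reads, 1 in the FNBP4 and HDAC7 knockouts at 5 points, 2 in the DDX17 knockout with only exon events, and 2 in each of the DDX5 and DDX17 knockouts with the scaled count. Past the adjusted p, the DDX5 deletion had 11 with 0.5 added, 0 with only its libraries, 7 and 1 against control hgRNA 1 and 2, and 1 with the scaled count, in place of 22. The FNBP4 PTC exon deletion had 4, 0, 1, 1 and 1 under the same alternatives and 5 without imbalanced or unassessed libraries, in place of 8. The FNBP4 intron deletion had 1 with the scaled count, and HNRNPD 1 with that or with only exon events. The DDX5 knockout had 0 with only its libraries or either control hgRNA and 4 scaled. The DDX17 knockout had 1 at 20 reads, 3 with only exon events and 3 scaled. The FNBP4 knockout had 2 at 20 reads or with 0.5 added, 6 with only exon events, 5 scaled, and 0 without imbalanced or strongly imbalanced libraries, with only its libraries or against control hgRNA 2. The HDAC7 knockout had 0 with only its libraries, either control hgRNA or scaled. The F test gave 7 with 0.5 added, in place of 15. At 5 points, non-overlapping microexons were 12, 7, 9, 7, 17 and 22 in the DDX5, DDX17, FNBP4 intron, HDAC7, FNBP4 PTC exon and HNRNPD deletions, and 51, 35, 37 and 28 in the DDX5, DDX17, FNBP4 and HDAC7 knockouts. At 20 reads they were 2 in the FNBP4 intron deletion, 4 in HNRNPD and 12 in the DDX17 knockout. Leaving out 1 library at a time, called counts ran from 0 to 1 in the DDX5 and DDX17 deletions and the HDAC7 knockout, 0 to 4 in the FNBP4 PTC exon deletion (4 without replicate 2 and 0 without replicate 1 of hgRNA 3), 0 to 2 in the FNBP4 knockout and 0 elsewhere. Counts past the adjusted p ran from 2 to 18, 0 to 45, 0 to 0, 0 to 0, 1 to 85 and 0 to 2 in the deletions and 0 to 1, 0 to 1, 1 to 8 and 0 to 5 in the knockouts, in the order above, the F test from 5 to 41, and non-overlapping counts from 6 to 10, 4 to 6, 6 to 10, 6 to 9, 8 to 15 and 10 to 31 in the deletions and 25 to 51, 20 to 47, 21 to 40 and 16 to 39 in the knockouts. The cause of these moves was not tested. Shares of all events under the alternatives are not given, so the counts cannot be read as particular to microexons. The scaled count was chosen after seeing the data. Replicate numbers did not pair most groups (correlation of replicate differences over 0.1 in 6 of 136 group pairs). Among the 6, DDX17 PTC exon hgRNA 1 and HDAC7 PTC exon hgRNA 1 correlated at 0.358, and with control hgRNA 1 at 0.241 and 0.185. With the replicate block SQSTM1 differed by -25.3 points, and 1 microexon was called in the FNBP4 PTC exon deletion and 0 elsewhere. Past the adjusted p were 23, 9 and 5 in the DDX5 deletion, FNBP4 PTC exon deletion and HDAC7 knockout. Of the 113 cases that lay apart from the controls by 10 points or more, 1 was called. Microexons had a median of 79.25 control reads, and the smallest detectable difference was not determined.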

Other observations

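DDX5 was the only edited gene with a microexon of its own in the set, a 14-base coding exon at chr17:64503803-64503816 on the minus strand whose length does not keep the frame. PSI was 15.6, 38.8, 25.4 and 17.5% in the DDX5 deletion and 18.1 and 31.7% in the DDX5 knockout, against 17.3, 20.6, 19.3 and 17.8% in the controls. Both edited groups overlapped the controls.

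AP2M1 and MAX, chosen after their values were seen, had small differences that passed no test. AP2M1, the cargo-binding subunit of the AP-2 clathrin adaptor, had a 6-base microexon at 56.4 and 53.6% in the FNBP4 knockout, against 67.96, 62.7, 62.5 and 66.3% in the controls (adjusted p 0.546 in limma). The 27-base microexon of MAX, the partner of MYC, was at 41.1 and 43.4% in the HNRNPD deletion, against 49.3, 47.55, 46.4 and 50.2% in the controls (adjusted p 0.780). In both, the edited libraries lay below every control.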
